A study of Mus musculus with 20 samples.

Results

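The transcripts of 10 circadian clock genes were followed in RNA-Seq of whole mouse retinas: the period genes Per1, Per2 and Per3, the cryptochromes Cry1 and Cry2, the REV-ERB genes Nr1d1 and Nr1d2, the PAR bZIP genes Dbp and Tef, and Ciart. They were chosen by symbol, not by their values, though with earlier results of these data known. All 10 were listed in every table, among 18754 genes listed in all and 19716 listed in any. The study asked what loss or inhibition of Atf6, a transcription factor of the unfolded protein response, does to retinal vessels and gene expression, and its 20 libraries form 4 groups of 5. Both OIR groups were C57BL/6J pups of both sexes put through oxygen-induced retinopathy (OIR), in which 75% oxygen from P7 to P12 obliterates retinal vessels and the return to room air lets abnormal ones grow until P17, when retinas were taken. One group was Atf6+/+ and the other Atf6-/-, whose germline allele carries a premature stop codon. The other 2 groups were wild-type C57BL/6J mice that had no OIR, and at their age too both sexes were studied. At P30 these mice received 1 µL into the vitreous of both eyes, either saline with the solvent DMSO, which the sample labels call PBS, or 10 µM Ceapin-A7, a small molecule that blocks ATF6 activation, in saline with a lower DMSO content. Their retinas were taken 24 h later. The amount of DMSO thus differs between the injected groups and cannot be told apart from the compound. Mice were anaesthetised with ketamine and xylazine for injection and before retinas were taken. All animals were kept on a 12-h light and dark cycle. The hour at which retinas were taken is not given in the sources used here, so it cannot be told apart from any difference between groups or between libraries.

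The clock is a transcriptional loop. CLOCK and BMAL1 (gene Arntl) bind E-boxes and switch on the Per, Cry, Nr1d1, Nr1d2, Dbp, Tef and Ciart genes. PER and CRY proteins, and CIART, then inhibit CLOCK and BMAL1, while the REV-ERB proteins repress Arntl and compete with its activators of the ROR family. DBP and TEF carry the rhythm to further genes through D-boxes, where NFIL3 opposes them. In most tissues Nr1d1, Dbp and the Per transcripts therefore rise and fall over the day, and Arntl runs in roughly the opposite phase. The retina holds clocks of its own in several cell types, and they are set by light.

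Values are FPKM, fragments scaled to transcript length and to the mapped fragments of the library, deposited per gene to 2 decimals. FPKM sums ran from 410599 to 456250 per library, which is not a depth, and relative depth read from the spacing of low values was 1 in every library but Atf6-/- replicate 4 (0.931), Ceapin-A7 replicate 1 (0.966) and Ceapin-A7 replicate 3 (0.690). No pair of libraries held the same values, the highest correlation between them being 0.9945. Atf6 RNA did not tell the genotypes apart, with 14.61 to 16.05 FPKM in Atf6+/+ OIR and 13.57 to 16.83 FPKM in Atf6-/- OIR libraries. The predicted gene Gm29733, which lies inside Atf6, had 3.12 to 6.89 FPKM in the 5 Atf6-/- libraries and at most 0.24 FPKM in the other 15. All 9 retina markers were expressed in every group, and their summed level was 7803.3 to 12211.6 FPKM. Summed lens markers reached 427.32 FPKM in Atf6+/+ OIR, 4.1 FPKM in Atf6-/- OIR, 4938.07 FPKM in saline and 8939.56 FPKM in Ceapin-A7 libraries, and no marker list had a gene at 0 in all libraries. The OIR libraries also differed in how level depended on the GC content of a transcript. The slope, in log2 units per 10% GC, was 0.146, 0.117, 0.084, -0.104 and 0.093 in Atf6+/+ OIR replicates 1 to 5 and -0.105, -0.052, -0.117, -0.203 and 0.140 in Atf6-/- OIR replicates 1 to 5. Atf6+/+ replicate 4 thus lay among the Atf6-/- libraries and Atf6-/- replicate 5 among the Atf6+/+ ones. In saline and Ceapin-A7 libraries the slope stayed between -0.076 and 0.050.

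Dbp was the most abundant of the 10 genes in all 4 groups, and Per2 the least. In Atf6+/+ OIR retinas the mean was 105.3 ± 14.3 FPKM (SD, n = 5) for Dbp, 76.6 ± 20.7 for Nr1d1, 66.9 ± 3.5 for Tef, 39.1 ± 6.6 for Cry2 and 34.7 ± 3.5 for Nr1d2. The remaining means there were 26.6 ± 6.6 FPKM for Per1, 19.0 ± 1.1 for Per3, 17.5 ± 1.6 for Cry1, 14.6 ± 2.8 for Ciart and 5.48 ± 1.00 for Per2. FPKM is per length, so these levels may be set beside each other, but only roughly. Level also depended on GC content, to a degree that differed by library, and the 10 transcripts ran from 41.8% GC (Nr1d2) to 61.6% (Dbp). The order of genes differed little between groups: Nr1d2 stood above Cry2 in all groups but Atf6+/+ OIR, Tef above Nr1d1 in Atf6-/- OIR, and Cry1 above Per3 in Ceapin-A7 libraries. Between groups, neighbours in the order of means overlapped for Per1, Per2, Per3, Cry2, Nr1d1, Dbp and Ciart. A gap between neighbouring groups was seen for 3 genes and always lay between the injected and the OIR groups: Cry1 (saline 21.1 FPKM, Atf6-/- OIR 17.99), Nr1d2 (saline 55.0, Atf6-/- OIR 42.6) and Tef (saline 97.7, Atf6+/+ OIR 66.9). The share of all genes with such a gap is not given here, but 40.4% did not overlap between saline and Atf6+/+ OIR. The FPKM are bulk values, in which fewer cells of a type and less RNA per cell cannot be told apart.

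**Figure D1:**
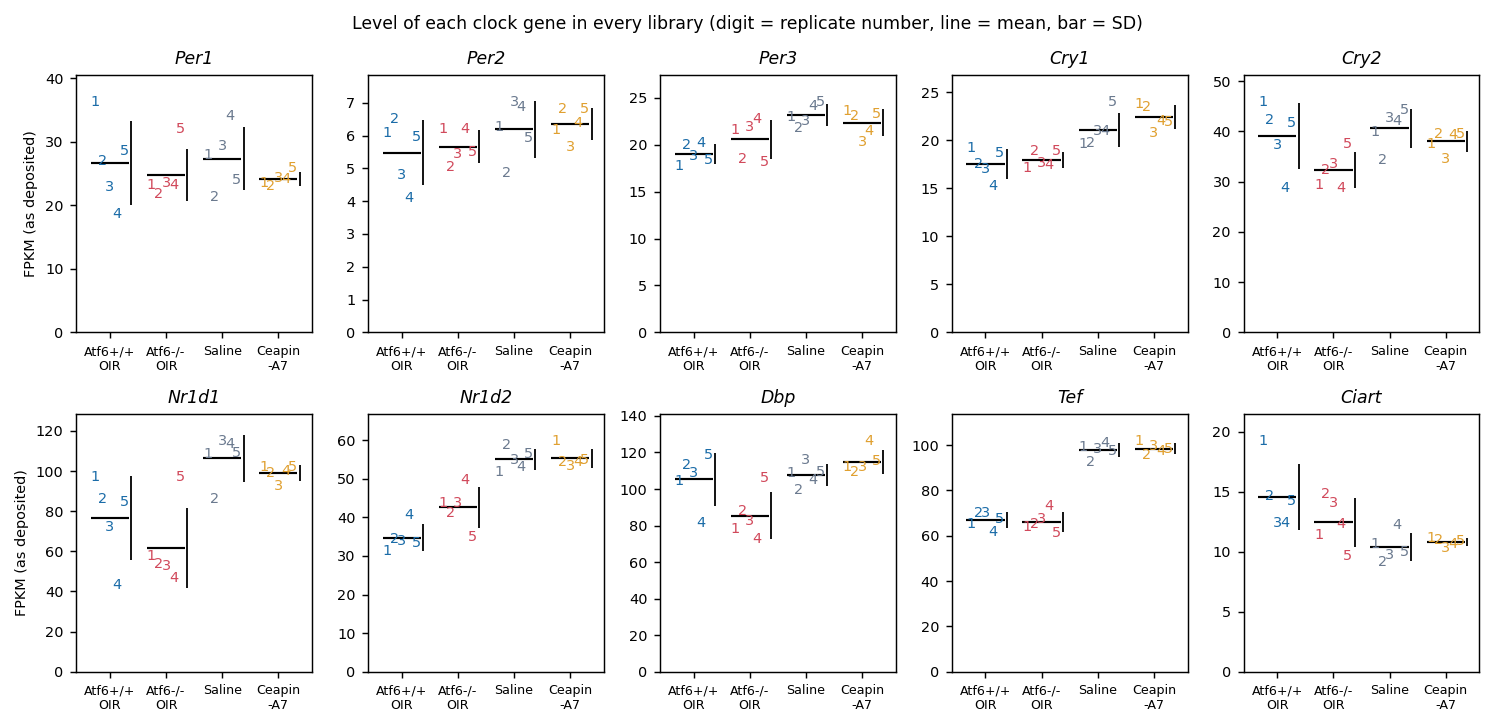
FPKM as deposited (y axis, from 0) of each of the 10 clock genes in every library, by group (x axis). Digits are replicate numbers, the line is the group mean and the bar its SD (n = 5). Tef, Nr1d2, Cry1 and Per3 sit higher in all saline libraries than in all Atf6+/+ OIR libraries, groups between which 40.4% of all genes did not overlap. Nr1d1 spreads most within the 2 OIR groups, from 43.02 to 97.08 FPKM.

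The first comparison asked whether loss of Atf6 in OIR altered these genes. It was tested with limma on log2(FPKM + 0.1) over 15704 genes with a mean FPKM above 0.1, so fold changes are on that scale, with Benjamini-Hochberg adjustment over all genes. None of the 10 clock genes had an adjusted p under 0.05, a threshold passed by 0.0318% of all genes tested (5 genes, 0.0255% higher and 0.00637% lower in Atf6-/-). Before adjustment, 2 of the 10 reached the 0.05 threshold in limma, Nr1d2 with a higher and Dbp with a lower level in Atf6-/-, against 12.7% of all genes (6.92% higher and 5.83% lower), so the share lay near that of all genes. Their median log2 fold change was -0.03, that of all genes 0.00, and 6 of the 10 had a negative sign. All 10 overlapped between the groups in deposited FPKM, where 1.52% of all genes did not.

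The REV-ERB genes had estimates of opposite sign. Nr1d2, which encodes REV-ERB beta, had 31.35, 34.31, 33.98, 40.60 and 33.48 FPKM in Atf6+/+ replicates 1 to 5 and 43.76, 41.16, 43.79, 49.58 and 34.79 FPKM in Atf6-/- replicates 1 to 5. Of the Atf6-/- libraries 4 stood above all Atf6+/+ libraries, and Atf6-/- replicate 5 stood among them. The means were 34.7 ± 3.5 and 42.6 ± 5.4 FPKM (SD, n = 5 each). The log2 fold change was 0.31 (standard error 0.08, 95% interval 0.13 to 0.48, limma adjusted p = 0.357), which placed the gene 106th of 15704 by p. An exact two-sided permutation test of the FPKM gave p = 0.0159, where 0.00794 is the smallest p that 5 against 5 can give.

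Nr1d1, which encodes REV-ERB alpha, a heme-binding repressor, spread widely in both genotypes. Its FPKM in Atf6+/+ replicates 1 to 5 were 97.08, 86.14, 72.27, 43.02 and 84.50. In Atf6-/- replicates 1 to 5 they were 57.76, 53.65, 52.83, 46.89 and 97.06. Atf6+/+ replicate 4 was the lowest of all 10 libraries, and Atf6-/- replicate 5 was level with the highest, Atf6+/+ replicate 1. The log2 fold change was -0.29 (standard error 0.25, 95% interval -0.83 to 0.24, limma adjusted p = 0.568), so the difference did not exceed the spread between libraries. Nr1d1 overlaps the gene Thra on the opposite strand, and although the libraries were stranded, whether counting used the strand is not given in the sources used here. Thra itself ran from 113 to 148.53 FPKM in Atf6+/+ and from 99.57 to 137.18 FPKM in Atf6-/- OIR libraries.

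The ratio of the pair was also taken. There were 3.10, 2.51, 2.13, 1.06 and 2.52 Nr1d1 FPKM for each Nr1d2 FPKM in Atf6+/+ replicates 1 to 5, and 1.32, 1.30, 1.21, 0.946 and 2.79 in Atf6-/- replicates 1 to 5. The ratio was chosen after the values were seen and is given with no test. The groups overlapped, with Atf6+/+ replicate 4 among the Atf6-/- ratios and Atf6-/- replicate 5 among the Atf6+/+ ones. The transcripts also differ in GC content, 56.8% for Nr1d1 and 41.8% for Nr1d2, and its part in the ratio was not tested.

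Among the PAR bZIP genes, which encode activators that bind D-boxes, Dbp showed the same libraries changing sides. It had 104.43, 113.27, 108.67, 81.41 and 118.47 FPKM in Atf6+/+ and 77.99, 88.01, 82.27, 72.72 and 105.92 FPKM in Atf6-/- replicates 1 to 5. Atf6+/+ replicate 4 fell among the Atf6-/- values and Atf6-/- replicate 5 among the Atf6+/+ values. The means were 105.3 ± 14.3 and 85.4 ± 12.8 FPKM (SD, n = 5 each). In limma the estimate on the log2 scale was -0.28 (standard error 0.13, 95% interval -0.57 to -0.00) with an adjusted p of 0.390, and the exact permutation test of the FPKM gave p = 0.0635. Tef did not follow Dbp. It lay between 61.13 and 72.96 FPKM in all 10 OIR libraries, and its log2 fold change was -0.00 with a 95% interval of -0.13 to 0.13.

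Of the repressors, Cry2 came nearest to Nr1d1 and Dbp. It had 45.81, 42.30, 37.24, 28.77 and 41.60 FPKM in Atf6+/+ and 29.37, 32.26, 33.54, 28.77 and 37.52 FPKM in Atf6-/- replicates 1 to 5, so that the lowest library of each genotype had the same value. Its log2 fold change was -0.25 (standard error 0.13, limma adjusted p = 0.425). Cry1, the other cryptochrome, had 15.25 to 19.21 FPKM in Atf6+/+ and 17.11 to 18.93 FPKM in Atf6-/-, with a log2 fold change of 0.06 and an interval of -0.12 to 0.23.

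Per1, the period gene that also answers acute signals such as light and glucocorticoids, ran from 18.62 FPKM in Atf6+/+ replicate 4 to 36.22 FPKM in Atf6+/+ replicate 1, and both extremes of the 10 libraries were thus Atf6+/+. Its log2 fold change was -0.07 (interval -0.45 to 0.31). Per2 had 4.11 to 6.50 FPKM in Atf6+/+ and 5.03 to 6.19 FPKM in Atf6-/- libraries, a log2 fold change of 0.08 (interval -0.21 to 0.37). Per3, the period gene that the core loop needs least, had 17.69 to 20.18 and 18.21 to 22.71 FPKM, and 3 of 5 Atf6-/- libraries stood above all Atf6+/+ libraries (log2 fold change 0.13, interval -0.03 to 0.28). Ciart, which encodes a repressor of CLOCK and BMAL1 also named CHRONO, had 19.20, 14.67, 12.44, 12.41 and 14.22 FPKM in Atf6+/+ and 11.42, 14.82, 14.08, 12.29 and 9.65 FPKM in Atf6-/- replicates 1 to 5. Atf6-/- replicate 5, which held the highest Per1 and Nr1d1 of its genotype, held the lowest Ciart of all 10 libraries. The log2 fold change of Ciart was -0.21 (standard error 0.14, limma adjusted p = 0.485).

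Which clock genes passed changed with the library left out. Without Atf6+/+ replicate 4, 4 of the 10 genes had an unadjusted limma p of 0.05 or less (Cry2, Nr1d1, Nr1d2 and Dbp), as did 3763 of 15702 genes tested. Without Atf6-/- replicate 5 the same 4 symbols passed, as did 4014 of 15718 genes. In neither case did a clock gene reach an adjusted p under 0.05. Leaving out any 1 of the other 8 libraries left Nr1d2 past the unadjusted threshold and Dbp short of it, and Per3 joined Nr1d2 without Atf6-/- replicate 2. With limma array weights, which gave Atf6+/+ replicate 4 a weight of 0.344 and Atf6-/- replicate 5 one of 0.345, those 4 genes had an adjusted p under 0.05, but so did 2772 of 15704 genes.

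The GC content of the clock transcripts was set beside these differences. Nr1d2, at 41.8% GC, was the one transcript of low GC among the 10 and had a higher GC content than only 9.81% of the genes tested, while Dbp (61.6%), Per1 (59.4%), Nr1d1 (56.8%) and Cry2 (55.6%) lay above at least 77.3% of them. Over the 10 OIR libraries, with group means removed, the deviation of Nr1d1 from its mean and the GC slope of the library had a Pearson r of 0.95 and a Spearman rho of 0.96, and r was 0.86 without the 2 libraries whose slope lay farthest from the median. For Dbp, r was 0.94 (rho 0.90, 0.83 without the 2), for Cry2 0.89 (rho 0.92, 0.80 without the 2), and for Nr1d2 it was -0.97 (rho -0.85, -0.93 without the 2). For Tef it was 0.01 (rho 0.02, -0.43 without the 2) and for Ciart 0.06 (rho 0.13, 0.36 without the 2). For Per1 it was 0.81 (rho 0.79, 0.54 without the 2) and for Per2 0.39 (rho 0.55, 0.12 without the 2). Cry1 and Per3 lay above 56.1% and 60.1% of the genes tested in GC content. For Cry1 r was 0.84 (rho 0.88, 0.71 without the 2) and for Per3 -0.65 (rho -0.61, -0.62 without the 2). In the 10 injection libraries r was -0.82 for Nr1d2 (rho -0.78, -0.76 without the 2), 0.66 for Nr1d1 (rho 0.15, 0.03 without the 2), 0.50 for Dbp (rho 0.52, 0.06 without the 2) and 0.56 for Cry2 (rho 0.15, -0.10 without the 2), so that the last 3 values rested on 2 libraries. These are descriptions over 10 libraries, with no test, and the slope was estimated from the same libraries. How common such r values are among all genes is not given here, so they are not shown to be particular to clock genes.

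When each library's trend with GC was removed, an alternative chosen after seeing the data, the differences became smaller for Nr1d2, Dbp, Nr1d1 and Cry2 and larger for Per2 (from 0.08 to 0.14), Per3 (from 0.13 to 0.16) and Cry1 (from 0.06 to 0.08). Nr1d2 had a log2 fold change of 0.20 (standard error 0.05, limma adjusted p = 0.320) and still passed the unadjusted threshold. Dbp had -0.13 (limma adjusted p = 0.515) and no longer passed it. Nr1d1 had -0.19, Cry2 -0.17 and Ciart -0.17, and Per1 turned from -0.07 to 0.06. Across all genes tested, fold change and GC content had a Spearman correlation of -0.48 in OIR, of -0.09 after Ceapin-A7 and of -0.24 between saline and Atf6+/+ OIR, where genes are not independent replicates. The part of GC content in the clock gene differences beyond these values was not tested.

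**Figure D2:**
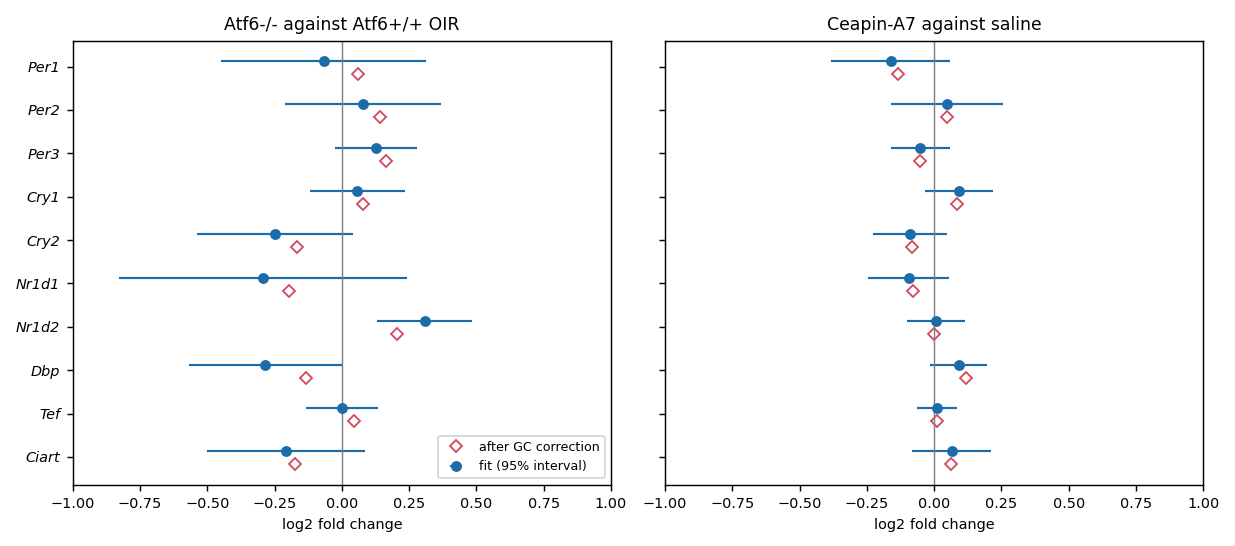
Log2 fold change (x axis) of the 10 clock genes in Atf6-/- against Atf6+/+ OIR (left) and in Ceapin-A7 against saline (right). Filled points are the limma fit with its 95% interval, and open diamonds are the fold change after the GC correction. In OIR only the intervals of Nr1d2 (0.13 to 0.48) and Dbp (-0.57 to -0.00) leave out 0, and after Ceapin-A7 no interval does.

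**Figure D3:**
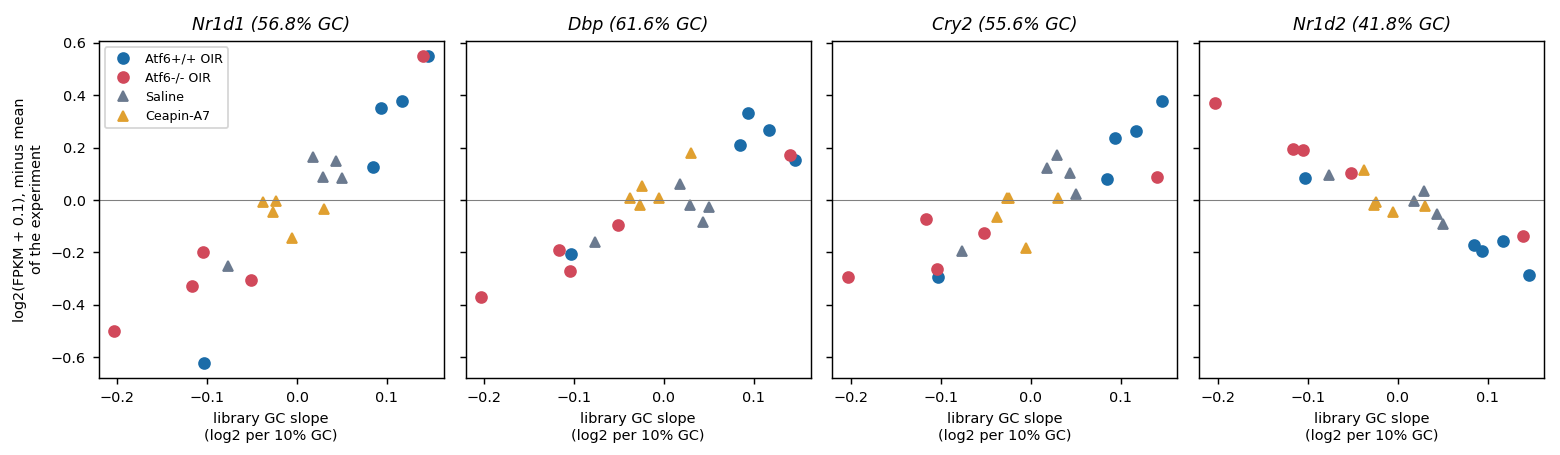
Level of Nr1d1, Dbp, Cry2 and Nr1d2 (y axis, log2(FPKM + 0.1) minus the mean of the experiment's 10 libraries) against the GC slope of the library (x axis, log2 units per 10% GC). Circles are OIR and triangles are injection libraries. Among the OIR libraries Nr1d1, Dbp and Cry2 climb and Nr1d2 falls along the slope, and the Atf6+/+ library at -0.104 and the Atf6-/- library at 0.140 sit with the other genotype.

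Markers of other cells also differed between the genotypes. Summed pigment epithelium markers ran from 16.7 to 100.01 FPKM in Atf6+/+ and from 60.54 to 290.49 FPKM in Atf6-/- OIR, 6 of 9 having a higher level at an unadjusted p of 0.05 or less and none at an adjusted one. Lens markers ran from 2.94 to 427.32 (median 19.41) and from 2.2 to 4.1 FPKM (median 3.42), with 7 of 9 tested lower at an unadjusted p. Endothelial and microglia markers had 1 of 7 and 1 of 6 lower. Of all genes, 6.92% were higher and 5.83% lower at that threshold. The part of these other cells in the clock gene levels was not tested.

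Pairs of clock genes were also compared within groups. Over the 20 libraries with group means removed, 15 of the 45 pairs of the 10 genes had a Pearson r above 0.5 (33.3%) and 4 had one below -0.5 (8.89%), where among all pairs of the 12997 genes with a mean of at least 1 FPKM 9.47% and 8.96% did. The tightest pair was Cry2 and Nr1d1 (r = 0.92, rho 0.85, 0.85 without the 2 libraries farthest in Cry2). It held in the OIR libraries (0.94) and was 0.87 in the injection libraries, where it came to 0.16 without 2 libraries and so rested on them. Per1 went with Nr1d1 (r = 0.87, rho 0.87, 0.79 without the 2), Nr1d1 with Dbp (0.88, rho 0.71, 0.66 without the 2) and Cry1 with Cry2 (0.82, rho 0.83, 0.75 without the 2). The 4 negative pairs all held Nr1d2, with Per1 (r = -0.71, rho -0.59, -0.59 without the 2), Cry2 (-0.72, rho -0.44, -0.53 without the 2), Nr1d1 (-0.78, rho -0.54, -0.57 without the 2) and Dbp (-0.76, rho -0.58, -0.58 without the 2). After the GC correction 13 pairs were above 0.5 and none below -0.5, with Cry2 and Nr1d1 at 0.86 and Nr1d1 and Nr1d2 at -0.42. They were not all the same pairs. Per1 with Cry1 (0.35), Per1 with Dbp (0.29), Cry1 with Dbp (0.34) and Per2 with Tef (0.47) dropped out. Per3 with Tef (0.58) and Nr1d2 with Tef (0.56) came in. The share of all gene pairs past these limits after the correction is not given here, so the 13 have no background. Libraries share their composition and an unrecorded hour of collection, so these values carry no p.

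Arntl, whose RNA runs opposite to that of Nr1d1 over the day in most tissues, had 43.29 to 48.03 FPKM in Atf6+/+ and 44.35 to 49.67 FPKM in Atf6-/- OIR. In the 10 OIR libraries its deviations had an r of -0.69 with those of Nr1d1 (rho -0.66, -0.52 without 2 libraries), -0.59 with Dbp (rho -0.56, -0.29 without 2), -0.79 with Per1 (rho -0.65, -0.48 without 2) and -0.73 with Cry2 (rho -0.81, -0.67 without 2). With Nr1d2 it was 0.62 (rho 0.61, 0.79 without 2) and with Per3 0.54 (rho 0.55, 0.39 without 2), of the other sign. With Cry1 it was -0.80 (rho -0.79, -0.80 without 2), with Per2 -0.45, with Ciart -0.37 and with Tef -0.04. In the 10 injection libraries r was 0.32 with Nr1d1 (rho 0.36, -0.18 without 2), -0.10 with Dbp (rho -0.14, 0.02 without 2), -0.01 with Per1 (rho -0.01, -0.76 without 2) and 0.60 with Cry2 (rho 0.68, 0.66 without 2). There it was 0.79 with Cry1 (rho 0.82, 0.64 without 2) and 0.53 with Per3 (rho 0.72, 0.67 without 2). With Per2 it was 0.21, with Ciart 0.19, with Nr1d2 0.04 and with Tef -0.14. The GC slope moved with Arntl too, with r of -0.67 in the OIR libraries (rho -0.71, -0.44 without 2) and 0.17 in the injection libraries (rho -0.05, -0.17 without 2), and its part in these values was not tested. Atf6-/- replicate 5 held the highest Nr1d1, Dbp, Per1 and Cry2 of its genotype and its lowest Arntl.

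The spread itself differed among the 10 genes. Pooled over groups, the within-group SD of log2 values was 0.34 for Nr1d1, above 85.4% of the 15628 genes tested, 0.26 for Per1 and 0.20 for Per2. It was 0.06 for Tef, above 2.3% of genes. Among genes of like mean FPKM, these SDs lay above 98.1% for Nr1d1, 95.8% for Per1, 76.2% for Per2 and 5.4% for Tef. For Nr1d1 the SD was 0.48 and 0.44 in Atf6+/+ and Atf6-/- OIR, 0.15 in saline and 0.06 in Ceapin-A7 libraries, and for Per1 it went from 0.38 in Atf6+/+ OIR to 0.06 after Ceapin-A7.

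**Figure D4:**
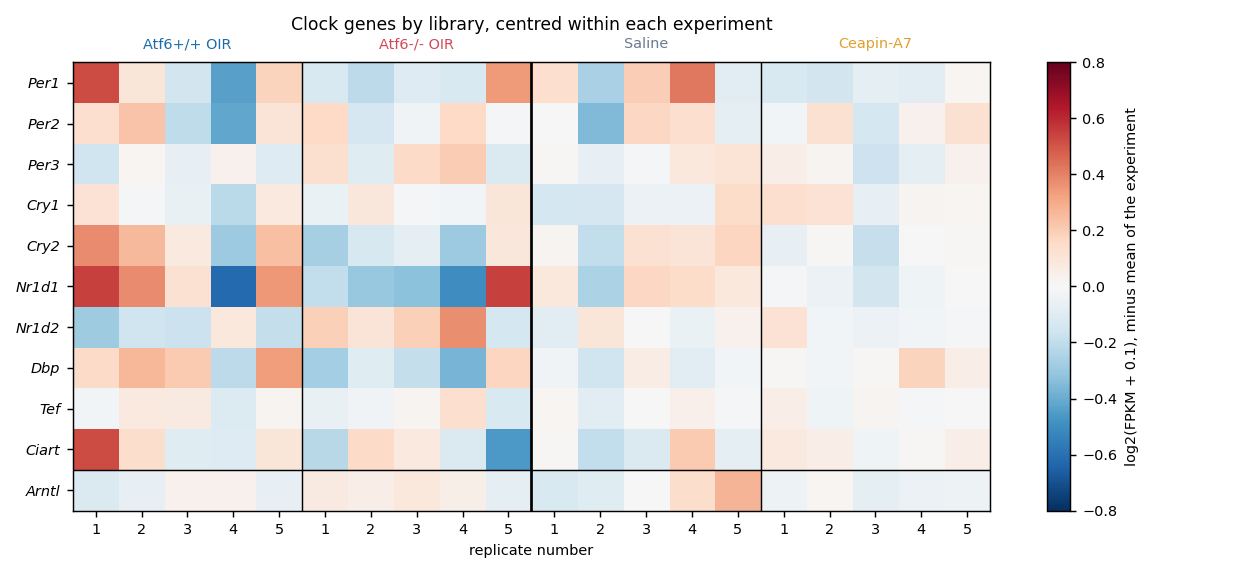
Colour shows log2(FPKM + 0.1) minus the mean of the 10 libraries of the experiment, for the 10 clock genes and Arntl (rows) in every library (columns, replicate numbers). Atf6+/+ replicate 4 has low Per1, Cry2, Nr1d1 and Dbp like most Atf6-/- libraries, Atf6-/- replicate 5 has high ones, and Nr1d1 varies least among the 5 Ceapin-A7 libraries.

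The genes most like each clock gene in these deviations, among 12996 other genes with a mean of at least 1 FPKM, were mostly not clock genes. Nr1d1 was followed most closely by Atp6v0a1 (r = 0.98), Hcn4 (0.97) and Dpysl5 (0.97) and opposed by Srsf3 (-0.96), Etfdh (-0.95) and Myef2 (-0.94). Dbp was followed by C1ql2 (0.96), Pik3r2 (0.95) and Ap2a1 (0.95) and opposed by Gpkow (-0.93), Sar1a (-0.93) and Map2k4 (-0.92). Nr1d2 was followed by Tmem68 (0.94), Edil3 (0.94) and Ecpas (0.94), all under 45% GC: 37.9, 38.0 and 44.1%. Those of the others were Mnt, Zfp592 and Pcnx2 for Per1 (0.90 to 0.92), Best3, Tmem145 and Syn3 for Per2 (0.82 to 0.87), Rasgef1a, Ncam2 and Reps2 for Per3 (0.88 to 0.91), Fzd10, Cplx2 and Gpr162 for Cry1 (0.85 to 0.87), Capn5, Ece1 and Elfn2 for Cry2 (0.94 to 0.95), Gm40595, Zfp618 and Dnajb14 for Tef (0.76 to 0.83) and Pip5k1a, Slc26a8 and Arih2 for Ciart (0.76 to 0.78). Clock genes ranked high in a few of these lists: Nr1d1 was 14th for Per1 and 18th for Cry2, and Cry2 was 23rd for Cry1. After the GC correction, r was 0.95 to 0.97 for the 3 followers of Nr1d1 and -0.70 to -0.92 for its opposed genes. For Dbp it was 0.79 to 0.87 and -0.74 to -0.84, and for the followers of Nr1d2 0.63 to 0.76. The followers of Dbp had 63.35, 61.42 and 59.26% GC and those of Nr1d1 53.54, 58.01 and 56.64%.

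Because genes of the loop share promoter elements, the 250 bases before the transcription start were searched on both strands in RefSeq promoters (GRCm38.p6), which were found for 9 of the 10 genes, with a pair of starts each for Per1 and Tef, and not for Per2. The E-box CACGTG stood before Ciart, Cry1, Per1 and Tef and before 6.02% of 32851 promoters of all genes. The related CACGTT stood before Cry1, Cry2 and Nr1d1 (3.85% of all), the D-box TTATGTAA before Per3 (0.819%), and AGGTCA, the half-site that REV-ERB and ROR proteins and other nuclear receptors bind, before Nr1d2 and Per1 (14%). Neither ATF6 element, TGACGTGG (0.563%) or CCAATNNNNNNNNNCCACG (0.113%), was found before any of them, and Dbp had none of the 6 motifs in this window. A match is a description of letters and not a binding site.

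Shown are the promoters of 4 genes: Nr1d1 and Nr1d2 for their estimates of opposite sign, and 2 chosen for their motif matches after these were seen, Ciart, with E-boxes 116, 58 and 44 bases before its start, and Per3, with D-boxes 205 and 158 bases before its start. Each is written 5′ to 3′ on the strand of the gene, with motif matches in capitals.
Nr1d1, chr11:98775378-98775627, minus strand, with the reverse complement of CACGTT in capitals: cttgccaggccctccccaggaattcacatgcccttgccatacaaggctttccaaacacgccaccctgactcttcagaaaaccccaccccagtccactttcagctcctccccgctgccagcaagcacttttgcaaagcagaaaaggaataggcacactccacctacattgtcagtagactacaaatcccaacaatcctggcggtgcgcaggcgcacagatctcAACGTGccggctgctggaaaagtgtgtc
Nr1d2, chr14:18239107-18239356, minus strand, with AGGTCA in capitals: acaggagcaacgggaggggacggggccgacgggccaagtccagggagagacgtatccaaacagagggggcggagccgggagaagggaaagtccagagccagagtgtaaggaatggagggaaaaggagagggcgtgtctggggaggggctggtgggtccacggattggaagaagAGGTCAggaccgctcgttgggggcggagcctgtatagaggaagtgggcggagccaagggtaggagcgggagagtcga
Ciart, chr3:95882229-95882478, minus strand, with CACGTG in capitals: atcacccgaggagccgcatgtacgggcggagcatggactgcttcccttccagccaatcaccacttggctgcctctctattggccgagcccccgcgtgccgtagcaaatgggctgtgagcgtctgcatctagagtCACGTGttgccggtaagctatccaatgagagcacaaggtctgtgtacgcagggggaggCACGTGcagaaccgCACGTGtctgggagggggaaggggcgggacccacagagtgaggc
Per3, chr4:151044666-151044915, minus strand, with TTATGTAA in capitals: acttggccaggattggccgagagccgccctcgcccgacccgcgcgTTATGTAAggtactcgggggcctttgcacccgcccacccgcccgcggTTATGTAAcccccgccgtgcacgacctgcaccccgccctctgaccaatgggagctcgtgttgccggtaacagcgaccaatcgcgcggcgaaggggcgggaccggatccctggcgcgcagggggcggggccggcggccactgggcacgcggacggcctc

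In OIR, of 19 further clock genes none had an adjusted p under 0.05 in limma, and 4 had a higher and 3 a lower level at an unadjusted p of 0.05 or less, against 6.92% and 5.83% of all genes. Higher were the ROR genes Rorb (22.8 ± 4.7 and 30.9 ± 4.4 FPKM, SD, n = 5 each) and Rora, whose products activate Arntl, and Clock and Btrc, the last a subunit of the ligase that marks PER proteins. Lower were Timeless, Bhlhe40, which encodes the E-box repressor DEC1, and Nfil3 (12.6 ± 1.7 and 9.8 ± 1.9 FPKM). The GC content of the 4 higher transcripts was 41.6% for Rorb, 40.9% for Rora, 40.9% for Clock and 43.6% for Btrc, against 55.1% for Timeless, 49.4% for Bhlhe40 and 54.5% for Nfil3, and its part was not tested. The log2 fold change was 0.47 for Rorb, 0.26 for Rora, 0.26 for Clock, -0.57 for Bhlhe40 and -0.35 for Nfil3, with limma adjusted p from 0.357 to 0.366. Arntl (0.09), Npas2 (0.02), Hlf (-0.12) and Bhlhe41 (-0.08) did not pass either threshold. Bhlhe40 in Atf6+/+ replicate 1, at 51.87 FPKM, stood far above the next library, at 28.59 FPKM, and the same library had the highest Per1, Nr1d1 and Ciart of its genotype.

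None of 12 clock-driven genes passed the unadjusted threshold in OIR, which 12.7% of all genes did, the smallest adjusted p being 0.497. Of 8 genes known to be rhythmic in the retina, 1 passed it, the cone transducin Gnat2 (log2 fold change 0.27, limma adjusted p = 0.357). Among 12 glucocorticoid-responsive genes Sgk1 was higher (0.38) and Lcn2 lower (-0.55) at unadjusted p, with limma adjusted p of 0.357 and 0.363. Of 12 immediate early genes Fosl2 passed (-0.78), of 10 hypoxia targets Egln3, Adm and Vegfa (-0.75, -0.83 and -0.26), and of 16 ATF6 targets Derl3 and Sdf2l1 (-0.71 and -0.46). No gene of these 6 lists had an adjusted p under 0.05.

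Ceapin-A7 was compared with saline to ask whether blocking ATF6 acted on the same genes in adult retinas. None of the 10 clock genes passed, either at an adjusted p under 0.05, which 0% of 15408 genes did, or at an unadjusted p of 0.05 or less in limma, which 10.4% did (1596 genes, 5.04% higher and 5.32% lower). The groups overlapped for all 10 genes, where 1.34% of all genes did not. The median over the 10 genes was 0.01 on the log2 scale, and 6 were positive and 4 negative.

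Dbp had 108.99, 99.43, 115.97, 105.01 and 109.57 FPKM in saline and 111.81, 109.58, 111.81, 126.04 and 115.28 FPKM in Ceapin-A7 replicates 1 to 5, a log2 fold change of 0.09 (95% interval -0.01 to 0.20, limma adjusted p = 0.508). Ceapin-A7 replicate 4 stood above all saline libraries. Nr1d1 had 108.66, 85.92, 114.74, 113.56 and 108.75 FPKM in saline and 101.89, 99.25, 92.53, 100 and 102.24 FPKM in Ceapin-A7, a log2 fold change of -0.09 (interval -0.24 to 0.06). Saline replicate 2 was the lowest of these 10 libraries in Nr1d1 and in Dbp, and it also had the lowest GC slope, -0.076. Per1 ran from 21.24 to 34.12 FPKM in saline and only from 22.98 to 25.83 FPKM in Ceapin-A7 libraries, with the largest negative estimate, -0.16 (interval -0.38 to 0.06).

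The remaining intervals for Ceapin-A7 against saline were -0.16 to 0.26 for Per2, -0.16 to 0.06 for Per3, -0.04 to 0.22 for Cry1, -0.23 to 0.05 for Cry2, -0.10 to 0.11 for Nr1d2, -0.06 to 0.08 for Tef and -0.08 to 0.21 for Ciart. An interval that holds 0 does not show that the levels were alike. Without saline replicate 2, Per1, Cry2 and Nr1d1 had an unadjusted limma p of 0.05 or less, as did 2532 of 15421 genes. With the GC correction Dbp passed it (0.12, limma adjusted p = 0.436). Of the 19 further clock genes, Timeless alone passed the unadjusted threshold (-0.24, limma adjusted p = 0.472). Among the other lists the immediate early genes had 6 of 12 lower, led by Fos (-0.63), Ier2 (-0.38) and Fosb (-0.82), against 5.32% of all genes lower and 5.04% higher, and the glucocorticoid-responsive genes had Zbtb16 (0.57) and Fkbp5 (0.18) higher, with no adjusted p under 0.05. Pdk4 (0.61) and Wee1 (0.25) were higher and Por (-0.16) lower among the clock-driven genes, Arr3 (0.17) and Gnat2 (0.32) higher and Pde8a (-0.18) lower among the rhythmic retinal genes, and Pdia6 (-0.13) and Sel1l (-0.10) lower among the ATF6 targets, all at an unadjusted p only.

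The effects of losing Atf6 and of Ceapin-A7 were also set against each other in one limma fit of all 20 libraries, since a gene that passes in one experiment and not in the other is not thereby shown to differ. None of the 10 clock genes had an adjusted p under 0.05 for the difference, against 0.032% of 15628 genes (0.0256% higher and 0.0064% lower). Nr1d2 (difference 0.30, 95% interval 0.09 to 0.51, limma adjusted p = 0.440) and Dbp (-0.37, interval -0.67 to -0.08, limma adjusted p = 0.480) passed at an unadjusted p, where 9.2% of genes did (5.4% higher and 3.79% lower). After the GC correction the differences were 0.20 and -0.25. Age, oxygen and the route of ATF6 loss differ together between the experiments and cannot be told apart.

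Saline and Atf6+/+ OIR libraries were compared to describe how the clock genes differed between the control groups. Age, oxygen and injection differ together here and cannot be told apart, the hour of collection is not known, and the Atf6+/+ libraries are the same as in the first comparison. In limma, 6 of the 10 clock genes had an adjusted p under 0.05, 5 higher and 1 lower in saline, against 55.5% of 15655 genes tested (27.7% higher and 27.8% lower), so the share is near that of all genes. The same 6 passed at an unadjusted p of 0.05 or less, against 60.4% of all genes (30.1% higher and 30.4% lower). In FPKM, 5 of the 10 did not overlap between the groups, against 40.4% of all genes.

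Tef rose. Its 65.29, 70.14, 69.91, 61.64 and 67.54 FPKM in Atf6+/+ OIR stood below the 99.16, 92.60, 98.45, 101.01 and 97.49 FPKM in saline, with a log2 fold change of 0.57 (standard error 0.05, limma adjusted p = 4.71e-06). Nr1d2 rose too, its means being 34.7 ± 3.5 FPKM in Atf6+/+ OIR and 55.0 ± 2.8 FPKM in saline (SD, n = 5 each), with no overlap. The limma estimate on the log2 scale was 0.68 (standard error 0.07) with an adjusted p of 6.21e-06. Nr1d1 rose from 76.6 ± 20.7 to 106.3 ± 11.7 FPKM, with 4 of 5 saline libraries above all Atf6+/+ libraries (0.54, standard error 0.19, limma adjusted p = 0.0321). That call was lost, at the adjusted threshold, when Atf6+/+ replicate 3 or saline replicate 1, 3, 4 or 5 was left out. Per3 (0.30) and Cry1 (0.28) rose by less and did not overlap (limma adjusted p = 0.000278 and 0.00965).

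Ciart fell. It had 12.41 to 19.20 FPKM in Atf6+/+ OIR and 10.64, 9.18, 9.75, 12.24 and 10.01 FPKM in saline, all 5 below the lowest Atf6+/+ library though narrowly so in replicate 4 (log2 fold change -0.46, standard error 0.12, limma adjusted p = 0.00679). Per1, Per2, Cry2 and Dbp did not pass, with fold changes of 0.07, 0.20, 0.08 and 0.06 on the log2 scale. With the GC correction Dbp did pass (0.27, limma adjusted p = 0.00533) and Nr1d2 went from 0.68 to 0.51.

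In the PAR bZIP family, Dbp had means of 105.3 and 107.8 FPKM, while Tef and its relative Hlf, whose product also binds D-boxes, were higher in saline. Hlf had 25.1 ± 3.7 FPKM in Atf6+/+ OIR and 46.9 ± 3.9 FPKM in saline (SD, n = 5 each), a difference of 0.93 on the log2 scale. Of the 19 further clock genes, 11 were higher and 2 lower in limma at an adjusted p under 0.05, against 27.7% and 27.8% of all genes. Among the higher were Hlf, Fbxl21 (0.56), whose product binds CRY proteins, Fbxw11 (0.66) and Btrc (0.19), which serve the degradation of PER, Clock (0.60), the CLOCK inhibitor Cipc (0.47), Rora (0.44), Csnk1d (0.30), a kinase of PER, Bhlhe41 (0.26) and Timeless (0.23). Lower were the other PER kinase Csnk1e (-0.49) and Arntl (-0.30), which went from 45.8 ± 2.1 to 36.9 ± 4.3 FPKM. Nfil3 (-0.16), Bhlhe40 (-0.22), Rorb (-0.04) and Npas2 (-0.04) did not pass.

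**Figure D5:**
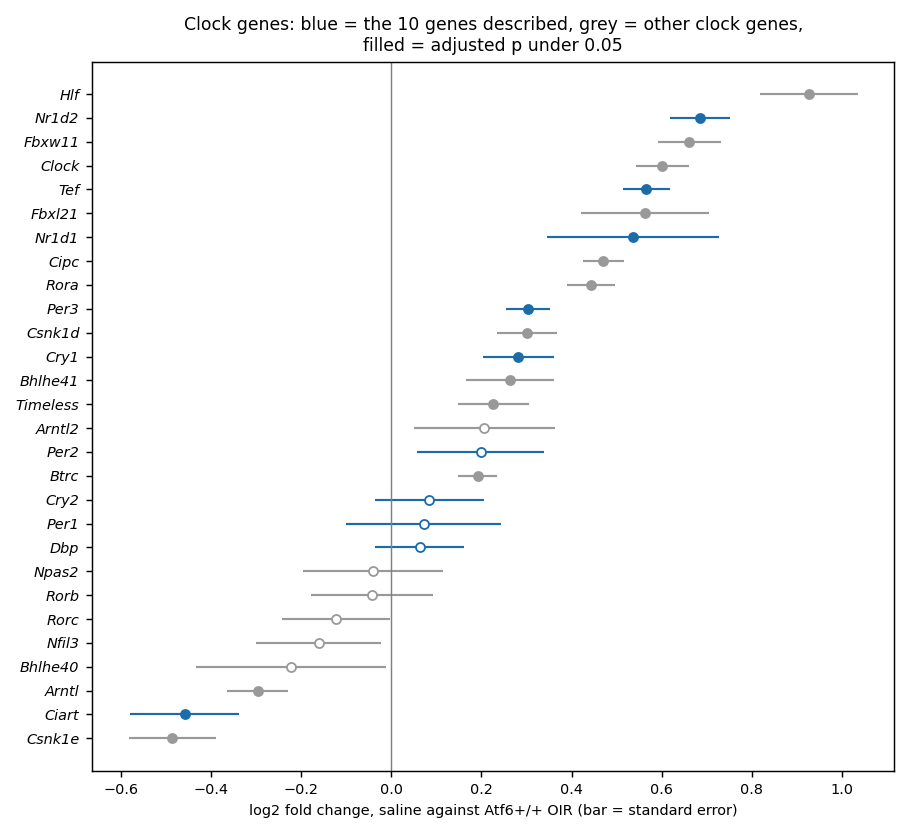
Log2 fold change of clock genes in saline against Atf6+/+ OIR libraries (x axis, bars are standard errors), in order of size. Blue marks the 10 genes described here and grey further clock genes, and filled points have an adjusted p under 0.05. Hlf is at the top with 0.93, Nr1d2 and Tef lie at 0.68 and 0.57, and Arntl, Ciart and Csnk1e are the filled points below 0.

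Genes of other lists passed in this comparison too, at an adjusted p under 0.05 that 27.7% of all genes passed upward and 27.8% downward. In limma, Vegfa (-1.63), Adm (-4.85) and Egln3 (-2.34) were among 7 of 10 hypoxia targets that fell in saline, Sgk1 (3.11) and Tsc22d3 (0.64) among 3 of 12 glucocorticoid-responsive genes that rose, and Klf9 (-0.40), which is on that list and on the clock-driven list, among 4 that fell. Of the clock-driven genes Usp2 rose (0.48) and Klf10 fell (-0.77), and of the rhythmic retinal genes Adcy1 (0.70) and Arr3 (0.78) rose and Drd4, the dopamine receptor gene, fell (-1.67). ATF6 targets were split, with 4 of 16 higher and 5 lower, led by Calr (-0.55), Pdia4 (-0.48) and Derl3 (-0.91), and of the immediate early genes Ier2 rose (0.42). Summed endothelial markers were 81.26 to 143.58 FPKM in Atf6+/+ OIR and 60.48 to 77.56 FPKM in saline, and microglia and macrophage markers 39.23 to 57.34 and 16 to 20.18 FPKM. The part of these cells in the clock gene differences was not tested.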

How the data were processed

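RNA was measured in 20 whole mouse retinas, cornea and lens removed, by stranded mRNA sequencing with paired 100 bp reads. The authors aligned reads with HISAT2 (2.0.4) to GRCm39 and estimated expression with RSEM (1.2.18), and the deposited tables hold FPKM per gene for each of the 4 groups of 5. DESeq2 (1.4.5) is also named in the submitters' processing notes. Whether counting used the strand is not given in the sources used here. No counts were used, so depth is unknown beyond the relative values given above. Mice came from several litters, but which library came from which litter or day is not given, so p-values measure the spread between these libraries.

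Each library's FPKM were rescaled by the median of ratios to the gene-wise geometric mean, and log2(FPKM + 0.1) was fitted in limma (3.58.1, R 4.3.3; eBayes with trend) for genes with a mean FPKM above 0.1, with Benjamini-Hochberg adjustment over all genes tested. Calls were taken at an adjusted p under 0.05 and, beside it, at an unadjusted p of 0.05 or less. Single FPKM differences were tested by exact two-sided permutation. The fit was tested on simulated data. In the OIR comparison (15704 genes) it called 87% of genes changed 2-fold, 71.5% of those changed 1.5-fold and 0.0719% of unchanged ones. For Ceapin-A7 (15408 genes) it called 90%, 77.5% and 0.153%. These shares hold for the simulated data only. In the measured OIR data 5 of 15704 genes had an adjusted p under 0.05. Nr1d2, with an unadjusted limma p of 0.00255, had an adjusted p of 0.357. Standard errors of the clock genes there ran from 0.06 for Tef to 0.25 for Nr1d1. The shares therefore do not give the sensitivity for these genes, and an absent call does not show an unchanged level.

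The 10 genes and all lists were chosen with earlier results of these data known. The genes named were the 10, 9 further clock genes and any other clock gene at an adjusted p under 0.05, up to 3 genes with the smallest p from each other list, and the 3 most like each of the 10 (for Nr1d1 and Dbp also the 3 most opposed). Timeless and Btrc were named in OIR, Timeless after Ceapin-A7 and Thra after their values were seen. A gene of the clock list is not reported here by name. Alternatives were other pseudocounts, low-value filters and scalings, limma without trend, array weights, a fit of all 20 libraries, a replicate block and leaving out each library. The GC correction, which removes a lowess curve (span 0.3) of log2 level on transcript GC content from each library, alone or with the block, was chosen after seeing the data.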

Additional observations from a re-analysis of the deposited data

Results flagged for a closer look

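In 12 of 80 groups of 5 libraries, 1 library lay farther from the others than Dixon's 95% critical value allows, where chance gives about 1 in 20. Of the 10 clock genes, Per1 in Atf6-/- OIR replicate 5 had 31.96 FPKM, the next being 23.47, and Nr1d1 in the same library had 97.06 FPKM, the next being 57.76. In that library Arntl was low at 44.35 FPKM (next 48.48) and Npas2 high at 1.52 FPKM (next 1.15). Nr1d1 in saline replicate 2 was low at 85.92 FPKM (next 108.66), and Nr1d2 in Ceapin-A7 replicate 1 was high at 59.67 FPKM (next 54.78). In Atf6+/+ OIR replicate 1 Nfil3 had 15.4 FPKM (next 12.27) and Bhlhe40 had 51.87 FPKM (next 28.59). Hlf had 53.79 FPKM in saline replicate 5 (next 46.28) and Bhlhe41 22.64 FPKM in Ceapin-A7 replicate 1 (next 20.4). The GC slope stood apart in Atf6+/+ OIR replicate 4 (-0.104, next 0.084) and in saline replicate 2 (-0.076, next 0.018). The part of the slope in these values was not tested.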

How the results depend on the processing

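None of the 10 genes that passed a threshold in a comparison as reported reversed its sign there under any alternative run. Dbp between saline and Atf6+/+ OIR, which passed with the GC correction and not as reported, did reverse under another alternative. Values are log2 fold changes. In OIR the count of the 10 genes at an unadjusted p of 0.05 or less was 1 with no filter on low values, without trend and with the GC correction, and 5 with array weights, under which 4 had an adjusted p under 0.05. Of all genes 2153 of 18486, 1898 of 15704 and 1602 of 15460 passed there. With array weights 5750 of 15704 genes passed unadjusted and 2772 adjusted. After Ceapin-A7 the count of the 10 genes was 1 with array weights, with the GC correction and with the GC correction and block. Of all genes 1493 of 15408, 1685 of 15185 and 1664 of 15185 passed there. For the difference of effects, array weights gave 2 adjusted and 5 unadjusted, where 744 and 3800 of 15628 genes passed. Leaving out 1 library gave 1 to 4 in OIR, 0 to 3 after Ceapin-A7 and 2 to 5 for the difference, the cause of which was not tested. The count over all genes moved as well. It ran from 1091 of 15712 to 4014 of 15718 in OIR and from 953 of 15392 to 2532 of 15421 after Ceapin-A7. For the difference it ran from 1007 of 15626 to 2614 of 15638.

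Genes near 0 reversed. In OIR, Cry1 was -0.010 with array weights, Tef 0.00013 in the fit of all 20 libraries, and Per1 0.061 and Tef 0.046 with the GC correction, with or without the block. After Ceapin-A7, Nr1d2 was -0.031 and Tef -0.027 with TPM, Nr1d2 -0.0079 and Tef -0.022 with quantile normalization, Tef -0.00076 with array weights, and Nr1d2 -0.0017 with the GC correction, with or without the block. Between saline and Atf6+/+ OIR, Dbp was -0.0095 with array weights. For the difference, Tef was 0.0029 with TPM, 0.012 with quantile normalization and 0.032 with the GC correction, with or without the block, and with array weights Per1 was -0.021 and Per2 -0.044.

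Leaving out 1 library, the ranges that crossed 0 were -0.20 to 0.058 for Per1, -0.032 to 0.15 for Per2, -0.0057 to 0.098 for Cry1 and -0.043 to 0.019 for Tef in OIR. After Ceapin-A7 they were -0.028 to 0.098 for Per2, -0.025 to 0.039 for Nr1d2 and -0.0039 to 0.020 for Tef. Between saline and Atf6+/+ OIR they were -0.058 to 0.20 for Per1, -0.032 to 0.15 for Cry2 and -0.037 to 0.11 for Dbp. For the difference they were -0.034 to 0.22 for Per1, -0.072 to 0.11 for Per2, -0.090 to 0.0064 for Cry1 and -0.048 to 0.0093 for Tef.

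The replicate numbers did not pair the libraries: same-numbered deviations had correlations of -0.26 to 0.21 in OIR and -0.22 to 0.31 in the injection libraries, and 1 of these 10 numbers was its library's best match. With the replicate block 3 of the 10 genes passed the unadjusted threshold in OIR (Cry2, Nr1d2 and Dbp), 0 after Ceapin-A7, 6 between saline and Atf6+/+ OIR and 2 for the difference. In the same order, 1967 of 15704, 1606 of 15408, 8986 of 15655 and 1399 of 15628 genes passed. FPKM carry no counts, so no limit set by depth could be computed.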
